A study of Rattus norvegicus with 6 samples.

Results

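The genes that make cholesterol and fatty acids, together with the SREBP regulators that switch them on, were followed in the renal cortex of rats given p-nitroanisole. They were a list of 31 genes, chosen by pathway, though with earlier results of these data known. The list held 18 genes of the sterol branch, 9 of the fatty acid branch, and 4 regulators with a sterol carrier. Probes were assigned to a gene through the accession printed beside them, which named 15645 genes on the array in all. By this rule 30 of the 31 genes had at least 1 probe, 58 probes together, and 29 genes had a probe bright enough to test. No probe carried an accession listed for Srebf1, so this regulator has no value here. The 2 probes of Scd, the stearoyl-CoA desaturase, were well above background on 0 and 2 of the 6 arrays, and Scd was not tested.

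The 2 groups were 3 male Sprague-Dawley rats given corn oil, the vehicle, and 3 given p-nitroanisole, a nitrobenzene with a methoxy group, at 500 mg/kg per day. Treatment lasted 4 weeks in both groups and the rats were 5 weeks old when bought. The comparison asks what the compound does to the cortex's gene expression. Each rat gave RNA of whole renal cortex for 1 Agilent array read in 1 colour (Cy3), so all cell types of the cortex were measured together. In such samples, fewer cells of a type and less RNA per cell cannot be told apart. The 7 proximal tubule markers checked, among them the phosphate transporter gene Slc34a1 and the glucose transporter gene Slc5a2, were well above background on all 6 arrays.

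Cholesterol and fatty acids are both built from acetyl-CoA, in the cytosol and on the endoplasmic reticulum. When sterols are scarce in that membrane, the escort protein SCAP carries the SREBP precursors to the Golgi, where proteases free the factors to enter the nucleus and switch on these genes. INSIG proteins hold SCAP back when sterols are plentiful. SREBP2, from Srebf2, acts mainly on the sterol genes and the SREBP1c form from Srebf1 mainly on fatty acid genes, and the proximal tubule is a cell type with much lipid traffic.

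Levels are given as log2 values relative to the 75th percentile of each array, so a difference of 1 is a doubling, and levels are compared only between arrays for the same probe. The 3 values of a group are listed as replicates 1, 2 and 3. Differences are treated minus vehicle, with the standard error (SE) and the adjusted p of a limma fit over all 32197 rows tested, and a row is called at an adjusted p under 0.05. Two-sided 95% intervals come from the same fit, with 3 arrays per group throughout.

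Most of the sterol and fatty acid genes were higher with treatment, by amounts that did not pass the test gene by gene. Of the 29 genes tested, 27 had a difference above 0, against 52.4% of all rows, and the median difference was 0.18, against 0.01 over all rows. In 16 of the 29 every treated array lay above every vehicle array, against 11.9% of all rows, and in 0 of the 29 every treated array lay below, against 10.3%. At an unadjusted p under 0.05, limma gave 14 genes higher and 0 lower, against 7.69% of all rows higher and 1854 of the 32197 rows lower. After adjustment 0 of the 29 were called, against 0.0745% of all rows, the smallest adjusted p being 0.0661 for Idi1. With the normexp background correction limma called 2 of the 29, Idi1 (adjusted p = 0.0283) and Dhcr7 (adjusted p = 0.0214), against 0.255% of all rows. With a trended robust variance it called 3, these and Sc5d (adjusted p = 0.0374), against 0.981% of all rows.

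**Figure D1:**
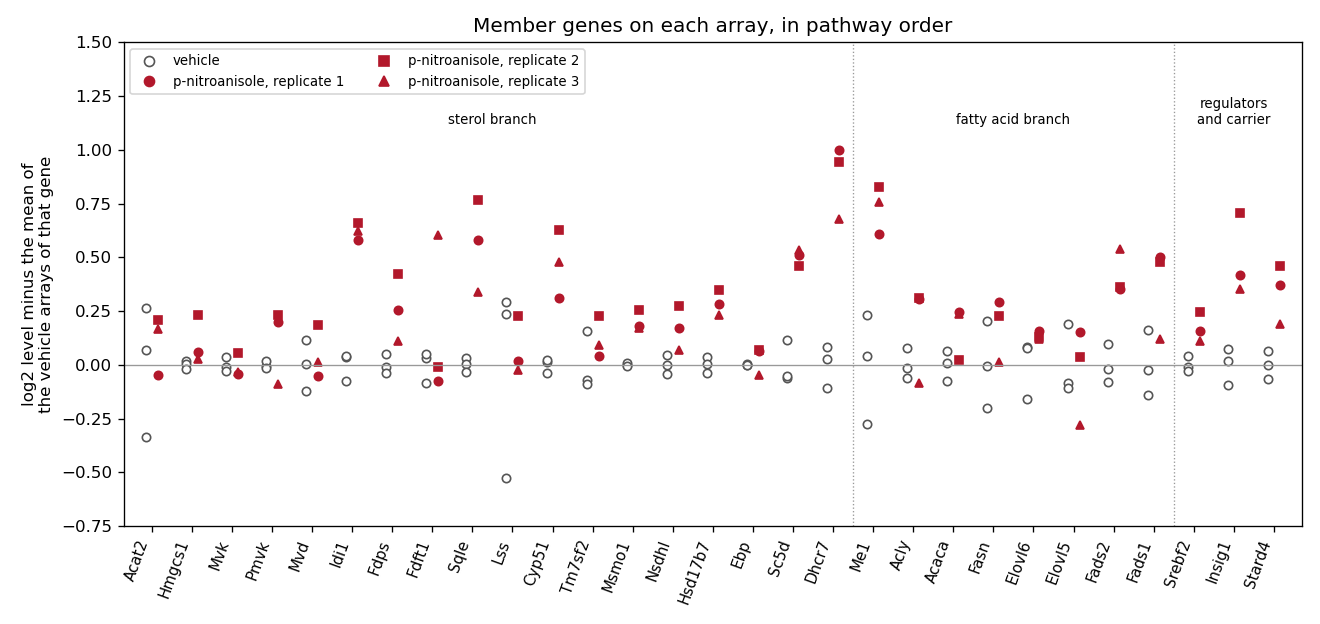
Level of each tested gene on each array, as log2 level minus the mean of that gene's vehicle arrays (vertical axis), with genes in pathway order (horizontal axis). Open circles are the vehicle arrays and red symbols the 3 treated arrays. Dhcr7, Me1, Idi1 and Sqle stand clear of their vehicle arrays, while the genes from Acat2 to Mvd lie close to theirs.

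The size of the difference varied along the sterol branch, and the first steps showed the least on the probes that stood for the genes. The 5 genes that lead from acetyl-CoA to isopentenyl diphosphate differed by -0.01 to 0.11, with a median of 0.11, and in 1 of them the groups did not overlap. Hmgcs1, which makes HMG-CoA from acetoacetyl-CoA, was at 2.80, 2.78 and 2.76 with vehicle and at 2.84, 3.01 and 2.81 with treatment. These groups did not overlap, but the gap between them was 0.01 and the difference was 0.11 (SE 0.08, adjusted p = 0.579). Further Hmgcs1 probes gave larger differences, 0.22 (SE 0.14) and 0.19 (SE 0.06).

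Mvk, the mevalonate kinase, was at -1.55, -1.57 and -1.50 with vehicle and at -1.58, -1.48 and -1.57 with treatment. Its groups lay on top of each other, with a difference of -0.01 and an interval from -0.16 to 0.15. Acat2, the cytosolic thiolase of the first step, differed by 0.11 with a wide interval from -0.31 to 0.52, since vehicle replicate 2 was low at 2.88 against 3.49 and 3.29. Without that array the difference was -0.06. The phosphomevalonate kinase gene Pmvk differed by 0.11 (SE 0.10), with treated replicate 3 at 0.21, below all vehicle arrays, and the other 2 treated arrays at 0.50 and 0.53. Mvd, the decarboxylase that closes this stretch, differed by 0.05 (SE 0.10), and by -0.01 with median scaling.

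The following 4 genes, from isopentenyl diphosphate to squalene epoxide, had a median difference of 0.41, and in 3 of them every treated array lay above the vehicle arrays. Idi1, the isomerase that supplies both isoprene building blocks, was at 0.64, 0.53 and 0.64 with vehicle and at 1.18, 1.26 and 1.23 with treatment. The arrays of each group were close together and the gap between the groups was 0.54. The difference was 0.62 (SE 0.07, 1.54-fold, adjusted p = 0.0661), which placed Idi1 at position 46 of all rows ordered by p.

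Sqle, the squalene epoxidase and an oxygen-using control point of the branch, was at 1.32, 1.29 and 1.26 with vehicle and at 1.87, 2.06 and 1.63 with treatment. Its treated arrays were spread more widely than its vehicle arrays, yet all lay at least 0.31 above them, and the difference was 0.56 (SE 0.12, adjusted p = 0.164). Fdps, the farnesyl diphosphate synthase, was at 2.89, 2.95 and 2.86 with vehicle and at 3.15, 3.32 and 3.01 with treatment, a difference of 0.26 (SE 0.10, adjusted p = 0.328) with a gap of 0.06.

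Fdft1, the squalene synthase, was the 1 gene of this stretch whose groups overlapped. Its treated replicate 3 was high at 3.41, while treated replicates 1 and 2, at 2.74 and 2.80, lay among the vehicle arrays (2.84, 2.73 and 2.86). The difference was 0.17 (SE 0.19), and it was -0.04 on the arrays of slide 1 alone, which leave out treated replicate 3. A second, dimmer Fdft1 probe gave another picture, at -0.07, -0.39 and -0.33 with vehicle and at 0.19, 0.30 and 0.24 with treatment, a difference of 0.51 (SE 0.10). The 2 probes of Fdft1 therefore disagreed in size, and the level of this gene is uncertain.

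The 9 genes from lanosterol to cholesterol all differed by more than 0, from 0.03 for Ebp to 0.88 for Dhcr7, with a median of 0.20. Dhcr7, the reductase of the last step, was at 2.25, 2.20 and 2.06 with vehicle and at 3.17, 3.11 and 2.85 with treatment. This was the largest difference among the 29 genes, 0.88 (SE 0.11, 1.83-fold, adjusted p = 0.0812), with a gap of 0.60 between the groups. Sc5d, the sterol desaturase that acts just before it, was at 0.87, 0.87 and 1.04 with vehicle and at 1.44, 1.39 and 1.46 with treatment. Its difference was 0.50 (SE 0.08, adjusted p = 0.113), and its treated arrays lay within a range of less than 0.1.

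Cyp51, the P450 that removes the first methyl group of lanosterol, was at -0.28, -0.27 and -0.32 with vehicle and at 0.02, 0.34 and 0.19 with treatment. All treated arrays were at least 0.29 above the vehicle arrays, for a difference of 0.47 (SE 0.09, adjusted p = 0.160). Msmo1, the oxidase for the remaining methyl groups, had very tight arrays, at 4.18, 4.19 and 4.18 with vehicle and at 4.37, 4.44 and 4.36 with treatment. Its difference was 0.20 (SE 0.06, adjusted p = 0.259). Hsd17b7, a ketosteroid reductase of the same demethylation steps, differed by 0.29 (SE 0.06, adjusted p = 0.184) and Nsdhl, the dehydrogenase beside it, by 0.17 (SE 0.08, adjusted p = 0.407), both without overlap.

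In Lss, Tm7sf2 and Ebp the groups overlapped. Ebp, a sterol isomerase, was at 3.91, 3.92 and 3.91 with vehicle and at 3.98, 3.98 and 3.86 with treatment, so that treated replicate 3 was its lowest array. The difference was 0.03, with an interval from -0.13 to 0.19, and it was -0.03 with median scaling. Tm7sf2, a sterol reductase, differed by 0.12 (SE 0.10). Lss, the lanosterol synthase, could not be placed, since vehicle replicate 1 was at -0.08 and the other vehicle arrays at 0.73 and 0.68, with the treated arrays at 0.46, 0.67 and 0.42. Its difference was 0.07 with an interval from -0.50 to 0.65, and it was -0.19 without vehicle replicate 1.

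The bases just before the start of 4 of these genes are shown, because they set the 3 sterol genes of lowest p that have an entry (Idi1, Dhcr7 and Sc5d) beside the gene with the difference nearest to 0 (Mvk). They are the 250 bases before the start, on the gene's own strand, from RefSeq on the build GRCr8, while the array was designed on another rat build. Capitals mark CCAAT, the NF-Y box, and GGGCGG, the Sp1 box, on either strand.
Idi1, chr17:66547525-66547774, minus strand: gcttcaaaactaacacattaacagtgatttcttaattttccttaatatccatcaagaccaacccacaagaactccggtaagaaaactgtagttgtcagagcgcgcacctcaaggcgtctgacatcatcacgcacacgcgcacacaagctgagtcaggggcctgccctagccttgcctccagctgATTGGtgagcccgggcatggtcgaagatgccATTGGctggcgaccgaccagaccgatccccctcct
Dhcr7, chr1:208444184-208444433, plus strand: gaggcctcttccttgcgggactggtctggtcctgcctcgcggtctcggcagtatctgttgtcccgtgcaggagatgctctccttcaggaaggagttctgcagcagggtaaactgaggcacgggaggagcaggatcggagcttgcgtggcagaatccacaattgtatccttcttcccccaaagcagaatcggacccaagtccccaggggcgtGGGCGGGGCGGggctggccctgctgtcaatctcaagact
Sc5d, chr8:51538278-51538527, minus strand: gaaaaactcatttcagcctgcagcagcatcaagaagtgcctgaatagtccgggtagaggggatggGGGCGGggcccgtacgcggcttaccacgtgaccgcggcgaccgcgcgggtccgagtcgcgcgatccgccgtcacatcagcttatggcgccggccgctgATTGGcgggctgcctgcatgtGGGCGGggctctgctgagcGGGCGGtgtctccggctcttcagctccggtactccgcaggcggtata
Mvk, chr12:47819504-47819753, minus strand: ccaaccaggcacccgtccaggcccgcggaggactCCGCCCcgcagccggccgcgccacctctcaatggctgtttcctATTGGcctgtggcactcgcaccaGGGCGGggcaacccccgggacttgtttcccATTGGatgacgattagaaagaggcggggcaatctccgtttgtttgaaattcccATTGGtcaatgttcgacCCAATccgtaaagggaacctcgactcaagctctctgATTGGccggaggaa

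Such windows were held for 24 of the 31 genes. NF-Y is a partner of SREBP at many sterol genes, and CCAAT lay in the windows of 18 of the 24 genes, 12 of 15 in the sterol branch, against 34.0% of all 33469 windows of the table. The 4 windows printed did not divide by it: Mvk, whose level hardly differed, held 5 matches, Idi1 held 2, Sc5d held 1 and Dhcr7 held 0. GGGCGG lay in 20 of the 24 against 30.5% of all windows, with 2 overlapping matches in Dhcr7, 3 in Sc5d, 2 in Mvk and 0 in Idi1. The E-box CACGTG, which SREBP factors can also bind, lay in 3 of the 24, Sc5d among them, against 5.59%. A strict core of the sterol regulatory element, TCACNCCAC on both strands, lay in 0 of the 24 and in 0.974% of all windows, which says only that these letters are not in these windows.

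**Figure D2:**
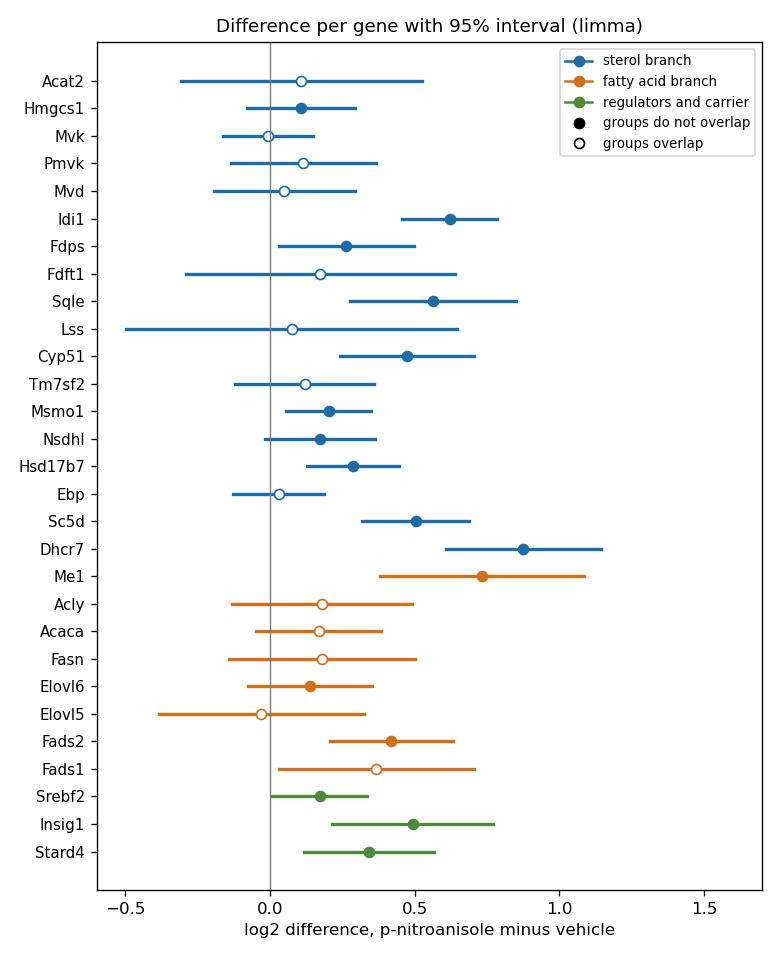
Difference between the groups for each tested gene (horizontal axis, log2, p-nitroanisole minus vehicle), with genes in pathway order from top to bottom. Bars are 95% limma intervals, filled points mark genes whose groups do not overlap and open points those that overlap, and Dhcr7 at 0.88, Me1 at 0.73 and Idi1 at 0.62 lie farthest to the right.

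Fatty acid genes differed by -0.03 to 0.73, with a median of 0.18, against 0.17 for the sterol genes. Of the 8 tested, 7 were higher and the groups did not overlap in 3, against 17 of 18 and 10 in the sterol branch. The difference between the branches was not tested. Me1, the cytosolic malic enzyme that supplies NADPH for lipid synthesis and is also a known NRF2 target, was at 4.27, 3.77 and 4.08 with vehicle and at 4.65, 4.87 and 4.80 with treatment. Every treated array was at least 0.38 above the vehicle arrays, and the difference was 0.73 (SE 0.14, 1.66-fold, adjusted p = 0.159).

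The enzymes that build palmitate showed smaller differences, with overlap in all of them. Acly, which makes cytosolic acetyl-CoA from citrate, was at 3.65, 3.79 and 3.70 with vehicle and at 4.02, 4.03 and 3.63 with treatment. Treated replicates 1 and 2 were its highest arrays and treated replicate 3 its lowest, and the difference was 0.18 (SE 0.13). Fasn, the fatty acid synthase, was at 1.22, 1.03 and 1.43 with vehicle and at 1.52, 1.46 and 1.24 with treatment, a difference of 0.18 with an interval from -0.14 to 0.50. Acaca, the acetyl-CoA carboxylase that makes malonyl-CoA, differed by 0.17 (SE 0.09, adjusted p = 0.463). A doubling of any of these 3 genes lay outside its interval, the highest upper bound being 0.50.

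Among the genes that lengthen and desaturate fatty acids, the desaturases of polyunsaturated acids stood highest. Fads2, the first desaturase of that route, was at -0.27, -0.15 and -0.33 with vehicle and at 0.10, 0.11 and 0.29 with treatment, without overlap, and differed by 0.42 (SE 0.09, adjusted p = 0.164). Fads1, the second desaturase, was at 1.59, 1.41 and 1.29 with vehicle and at 1.93, 1.91 and 1.55 with treatment. Here treated replicate 3 fell within the vehicle range, and the difference was 0.37 (SE 0.14, adjusted p = 0.341).

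The elongases were closer to their vehicle levels. Elovl6, which lengthens palmitate, was at 1.17, 1.41 and 1.41 with vehicle and at 1.48, 1.46 and 1.45 with treatment, a difference of 0.14 (SE 0.09) in which the groups were 0.04 apart. Elovl5, which lengthens polyunsaturated acids, differed by -0.03 with an interval from -0.38 to 0.32. Its sign was positive, at 0.09, on the arrays of slide 1 alone.

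The regulators and the carrier were higher without overlap in 3 of 3 tested, with differences from 0.17 to 0.49. Insig1, which retains SCAP and is itself an SREBP target, was at 2.46, 2.40 and 2.29 with vehicle and at 2.80, 3.09 and 2.74 with treatment, a difference of 0.49 (SE 0.11, adjusted p = 0.188). Stard4, a cytosolic sterol carrier and SREBP2 target, was at 1.90, 1.83 and 1.76 with vehicle and at 2.20, 2.29 and 2.02 with treatment, a difference of 0.34 (SE 0.09, adjusted p = 0.231). Srebf2, the gene of the main sterol regulator, differed less, at 1.67, 1.62 and 1.60 with vehicle and 1.79, 1.87 and 1.74 with treatment (0.17, SE 0.07, adjusted p = 0.356). In each of these 3 genes treated replicate 2 was the highest array and vehicle replicate 3 the lowest.

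Separate probes gave the same direction for most genes. Of the 26 further tested probes of these genes, 24 had the sign of the probe that stood for the gene. In all, 52 of the 55 tested probes were higher with treatment. The share over all rows was 52.4%, but there 1 probe stands for each named gene, and the share over all single probes is not given. Probes of 1 gene read the same RNA, so they are not separate evidence. The 3 Idi1 probes gave 0.62, 0.63 and 0.62, the 3 Me1 probes 0.73, 0.81 and 0.73, and the 4 Insig1 probes 0.49, 0.57, 0.50 and 0.62. On every probe of these 3 genes the treated arrays lay above the vehicle arrays. For Sqle the second probe gave 0.65 (SE 0.09), for Cyp51 0.65 (SE 0.14) and for Fads2 0.35 (SE 0.08), all without overlap. A Hmgcs1 probe of middle brightness had tight vehicle arrays at 0.75, 0.75 and 0.75 and treated arrays at 0.88, 0.97 and 0.95, a difference of 0.19 (SE 0.06). The exceptions in sign were the second probes of Lss at -0.17 (SE 0.27) and Elovl5 at 0.20 (SE 0.50), and the second Fasn probe was near 0 at 0.02 (SE 0.13). Dhcr7 and Sc5d each rest on 1 probe.

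**Figure D3:**
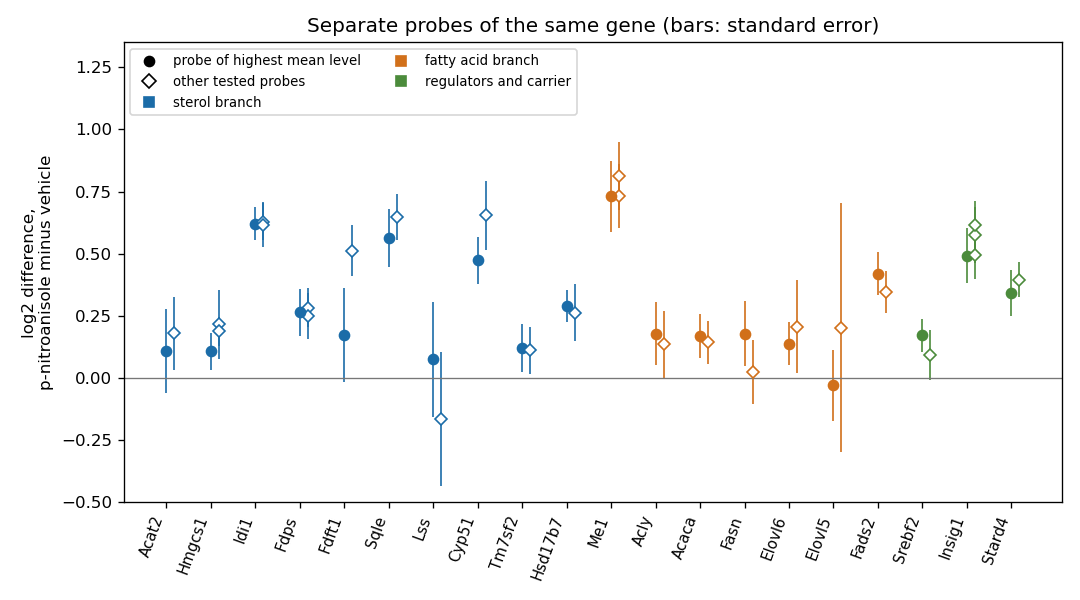
Difference between the groups on each tested probe (vertical axis, log2, with standard error bars) for the 20 genes with more than 1 tested probe (horizontal axis). Filled circles are the probes that stand for the gene and open diamonds the others. The probes of Idi1, Me1 and Insig1 lie together, and those of Fdft1 lie apart at 0.17 and 0.51.

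The 3 treated arrays did not differ from vehicle to the same extent, and with 1 array per rat, rat and array cannot be told apart. Treated replicate 2 had the highest of the 3 treated values in 20 of the 29 genes, while it was the highest in 35.6% of all rows. Treated replicate 3 had the lowest in 18 of the 29, against 37.3% of all rows. The median over the sterol genes of the level above the vehicle mean was 0.18, 0.24 and 0.14 on treated replicates 1, 2 and 3, and lay within 0.01 of 0 on each vehicle array. For the fatty acid genes it was 0.30, 0.27 and 0.12, against -0.05 to 0.01 on the vehicle arrays. By this measure the 3 vehicle values of each gene average 0, which holds the vehicle medians near 0. Treated replicate 3 was the only array on the second slide. Without it, 28 of the 29 genes were higher, the groups did not overlap in 21 (17.7% of all rows with these arrays), and the medians were 0.22 for the sterol and 0.29 for the fatty acid branch. With each array centred on its median, 25 of the 29 genes were higher, against 40.2% of all rows, and the groups did not overlap in 11, against 7.32%.

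Genes next to these pathways did not all share the pattern. Of the further sterol genes and SREBP machinery, 14 were tested, 7 were higher and 7 lower, and the median was 0.00 (0 called). The thiolase gene Acat1 differed by 0.14 (SE 0.08) and Ggps1, which makes geranylgeranyl diphosphate, by -0.13 (SE 0.06), and these were the 2 genes of the list without overlap. The parts of the SREBP switch, looked at for their role after the values were known, all overlapped between the groups. The escort gene Scap differed by -0.03 (interval from -0.28 to 0.23), the protease gene Mbtps1 by -0.06 (interval from -0.23 to 0.10) and Insig2 by 0.01 (interval from -0.15 to 0.17). The gene of the other protease, Mbtps2, differed by 0.23 with a wide interval from -0.63 to 1.09, its treated arrays lying at -3.34, -3.88 and -4.77.

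Of the other genes of fatty acid synthesis, 16 were tested, 11 were higher, 5 were without overlap on the higher side, and the median was 0.06 (0 called). Mid1ip1, whose product activates acetyl-CoA carboxylase, was at 2.83, 2.53 and 2.73 with vehicle and at 3.47, 3.18 and 3.25 with treatment, a difference of 0.60 (SE 0.12, adjusted p = 0.159). Its relative Thrsp differed by 0.30 (SE 0.10, adjusted p = 0.306). The other stearoyl-CoA desaturase gene, Scd2, was measured although Scd was not, and it overlapped between the groups with a difference of 0.34 (SE 0.24).

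NADPH supply genes were higher in 5 of 5 tested, with a median of 0.16 (0 called). The transketolase gene Tkt was at 7.72, 7.67 and 7.67 with vehicle and at 8.32, 8.41 and 8.20 with treatment, a difference of 0.62 (SE 0.08, adjusted p = 0.0804). Idh1, the cytosolic NADP isocitrate dehydrogenase, differed by 0.71 (SE 0.20, adjusted p = 0.246). Tkt and Idh1 were the 2 genes of this list without overlap.

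Among 11 genes of sterol sensing, efflux and esterification, 5 were higher and 6 lower, with a median of -0.02 (0 called). The efflux pump genes Abca1 and Abcg1, targets of the oxysterol receptor LXR, differed by -0.07 (SE 0.39) and -0.24 (SE 0.18), with overlap in both. Nr1h4, the bile acid receptor FXR, was at 4.99, 4.93 and 4.79 with vehicle and at 5.42, 5.34 and 5.35 with treatment, a difference of 0.47 (SE 0.08, adjusted p = 0.128). Lpcat3, a phospholipid acyltransferase and LXR target, differed by 0.32 (SE 0.06, adjusted p = 0.156).

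**Figure D4:**
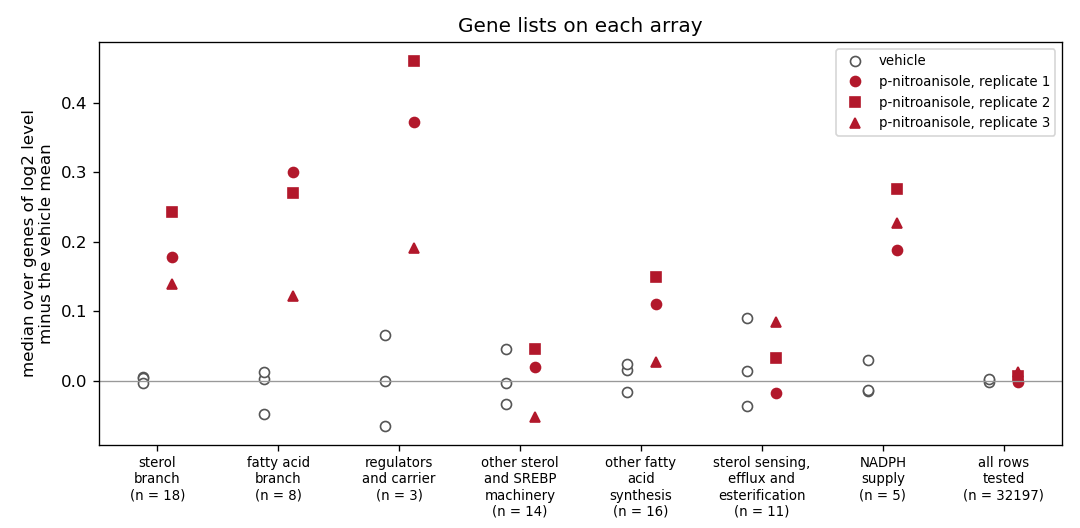
Median over the tested genes of each list of the log2 level minus the gene's vehicle mean (vertical axis), per array, with the number of genes under each list. Open circles are vehicle arrays and red symbols treated arrays. The treated arrays lie above the vehicle arrays for both branches, the regulators and the NADPH genes, mix with them for the sterol and SREBP machinery and for efflux, and all rows together lie close to 0.

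Markers of other cells were read on the same arrays. Proximal tubule markers differed by a median of 0.06 (7 tested, 6 higher), and their median on single arrays was -0.01 to 0.03 with vehicle and 0.02 to 0.08 with treatment. Proliferation markers were higher in 4 of 4 tested, with a median of 1.19 (-0.15 to 0.14 on vehicle and 1.02 to 1.31 on treated arrays), and Prc1 was called. Of the 5 red cell markers tested, Alas2, Ahsp and Rhd were higher without overlap, by 1.91, 2.01 and 2.09, and Alas2 was called. Slc4a1 differed by 0.00 (interval from -0.42 to 0.42). Hemgn passed the filter on dim probes only through the treated arrays, so its difference of 1.98 (1.06 with normexp) is not counted with these. Collecting duct markers were lower in 4 of 4, with a median of -0.27 (-0.05 to 0.08 on vehicle and -0.28 on each treated array). Podocyte and macrophage markers had medians of -0.06 and -0.02, with 1 and 2 of 4 higher. The part of dividing, blood and other cells in the differences above was not tested.

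Fat and adrenal tissue lie beside the kidney and make much lipid or sterol. Of the adipocyte markers 4 were tested, 3 being higher, with a median of 0.13 (-0.08 to 0.06 on vehicle and 0.03 to 0.14 on treated arrays). Lpl was higher by 0.33 (SE 0.13) without overlap. Cidec, at 0.14 (interval from -0.78 to 1.07), and Pck1, at 0.12 (interval from -0.06 to 0.30), overlapped between the groups and set this median. Pck1 had a vehicle mean of 7.91, far above the 75th percentile of the arrays. Whether its signal came from fat was not tested, so the count of 3 is no measure of fat. The defining adipocyte gene Adipoq was lower with treatment, at -0.01, 0.26 and 0.15 with vehicle and -0.35, -0.21 and -1.16 with treatment, while Lep was not well above background on any array. Of the 6 adrenal cortex markers, Star, Cyp11b1, Cyp11b2 and Mc2r were not well above background on any array. Hsd3b1, well above background on all 6, was higher by 1.47 (SE 0.27, adjusted p = 0.146). Cyp11a1 passed the filter on dim probes only through the treated arrays, at -5.30, -6.19 and -5.49 with vehicle and -4.07, -5.04 and -4.40 with treatment, and its difference of 1.16 was 0.49 with normexp. Hepatocyte markers were higher in 0 of 3 tested, with a median of -0.04 (-0.55 to 0.53 on vehicle and -0.16 to 0.14 on treated arrays). The part of these tissues in the differences above was not tested.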

How the data were processed

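Per the labels' protocols, total RNA of renal cortex was turned into Cy3-labelled cRNA. The deposited scanner files hold background-subtracted spot intensity, unscaled across arrays, which per the file headers come from version 10.7.1.1 of Feature Extraction. The deposited value table of the authors holds the same intensity divided by 1 constant per array, within 0.0241% of its 75th percentile, with column medians of 0.105, 0.105 and 0.105 (vehicle) and 0.109, 0.108 and 0.111 (treated).

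Each array has 61537 probes, of which 66.4% to 69.2% stood well above background, 0 spots were saturated, and 0 to 4 flagged probes per array were left out. The number of arrays limits the precision. The log2 intensity (floor 1) minus each array's 75th percentile was tested where all 3 arrays of a group stood well above background, and the probe of highest mean stood for a gene (28206 probes were named from RefSeq, GRCr8). This left 32197 rows, 24 of them called, which were fitted with limma 3.58.1 in R 4.3.3 (Benjamini-Hochberg over all rows), as tested on simulated data. Further probes come from a fit with every probe as its own row. The 2 groups shared a slide except treated replicate 3, which correlated with the other arrays at 0.989 to 0.991.

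Genes and lists were chosen with earlier results of these data known. Named are all members, the 2 genes of largest difference without overlap per list of neighbouring pathways, and markers that state a cell type's level or absence. Any other gene was chosen after its values were seen.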

Additional observations from a re-analysis of the deposited data

How the results depend on the processing

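Each of 16 alternatives (scaling, values, background, filter, probe rule, variance, pairing, slide, and each array left out) was run for every tested gene. In 4 of them (the filters, the variance and the block) each gene's difference stayed as it was. Slide 1 alone holds the same arrays as leaving out treated replicate 3, so 11 could move a difference. Of these 11, the deposited values repeat the main scaling almost exactly (sterol median 0.173 in both), so agreement there was fixed beforehand. The sign of 22 of the 29 genes held in these 11. It turned in at least 1 for Acat2, Mvk, Mvd, Fdft1, Lss, Ebp and Elovl5, and the cause was not tested. The sterol median was 0.12 with median scaling and 0.22 on slide 1 alone, and 0.15 to 0.22 when 1 array was left out. The fatty acid median was 0.29 on slide 1 alone and 0.13 to 0.29 with 1 array left out. The sterol minus the fatty acid median was -0.069 on slide 1 alone and -0.069 to 0.071 with 1 array left out, and its sign also turned with quantile scaling and with the mean of a gene's probes, so neither branch stood above the other throughout. Rows called over all genes were 82 with normexp, which the files allowed only on the spot medians and which was chosen after seeing the data, and 316 with a trended robust variance. They were 2 with no filter, 14 with the mean of a gene's probes, 9 on slide 1 alone, and 0 to 9 with 1 array left out. Deviations from the group means correlated at -0.01, 0.04 and -0.01 between same-numbered arrays, and at -0.07 to 0.06 between the others. This gave no sign that replicate numbers pair the rats, though 3 arrays per group are too few to settle it. With the replicate block 1 row was called and 0 of the 29 genes.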
